A study of Mus musculus with 25 samples.

Results

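The carbonic anhydrase genes Car1, Car2, Car3, Car13, Car4 and Car8 were examined for binding of GATA1 and TAL1 in mouse erythroid cells. Members were the entries of the 6 deposited location lists that lay in the body of any of these 6 genes or within 50 kb of it. These were 158 of the 166131 entries in all. They comprised 8 of 10290 final GATA1 locations, 19 of 15209 final TAL1 locations, 14 of 12781 GATA1 MultiGPS locations, 19 of 17639 TAL1 MultiGPS locations, 33 of 46666 GATA1 peak pairs and 65 of 63546 TAL1 peak pairs.

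Binding was mapped by ChIP-exo, in which an exonuclease trims immunoprecipitated DNA up to the cross-linked protein. G1E cells are erythroid progenitors that lack GATA1, and G1E-ER4 cells are derived from them and carry GATA1 fused to an estrogen-responsive domain, so that estradiol activates it. For GATA1 there was 1 G1E library, and the G1E-ER4 libraries numbered 3 before estradiol (0 h), 3 after 3 h and 3 after 24 h. For TAL1 the G1E libraries numbered 4, and those of G1E-ER4 numbered 5 before estradiol, 3 after 3 h and 3 after 24 h. The labels give 10 nM estradiol at 3 h and 24 h, whereas the study's methods state a higher dose, and which was used is not settled by the files. All libraries share the Gata1-null parental line. In G1E-ER4 cells the GATA1 that was mapped is the fusion protein, not the native one. Each list pools the libraries of a factor, and an entry is a single base position in mouse genome build mm9 with no tag count or score. The depth behind an entry is therefore unknown from the lists, and no change over time and no spread between libraries could be computed. A peak pair joins peaks of tag ends on opposite strands, a MultiGPS location is a binding event placed by a statistical model over all time points, and a final location is a MultiGPS location with a peak pair of the same factor within 100 bp. As a check of the lists, the erythroid genes Hbb-b1, Alas2 and Epor were examined, and 3 of 3 had a final location of each factor within 50 kb. Of all protein-coding genes, 42.7% had one of GATA1 and 40.3% one of TAL1, so the check is a weak one.

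Carbonic anhydrases are zinc enzymes that interconvert carbon dioxide and bicarbonate, and in red cells this reaction carries carbon dioxide from the tissues to the lungs. Car2 encodes a cytosolic isozyme of very high activity and Car1 a less active cytosolic isozyme that is abundant in red cells. Car3 encodes a low-activity isozyme known from muscle, liver and fat, Car13 another cytosolic isozyme, Car4 an isozyme anchored to the outer face of membranes, and Car8 a related protein without the catalytic activity. GATA1 is the zinc finger factor that drives erythroid maturation and binds WGATAA, that is AGATAA or TGATAA. TAL1 is a basic helix-loop-helix factor that can share a complex with GATA1 at such sites.

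In mm9, Car13 (ENSMUSG00000027555.8, chr3:14641727-14663002, plus strand), Car1 (ENSMUSG00000027556.8, chr3:14766217-14778459, minus strand), Car3 (ENSMUSG00000027559.4, chr3:14863538-14872351, plus strand) and Car2 (ENSMUSG00000027562.7, chr3:14886426-14900769, plus strand) follow each other on chromosome 3. They are separated by 103214, 85078 and 14074 bp. Car4 (ENSMUSG00000000805.11, chr11:84771288-84779546, plus strand) and Car8 (ENSMUSG00000041261.8, chr4:8070514-8166188, minus strand) lie alone. The windows also reached E2f5 and 1810022K09Rik beside Car13, and Myo19, Znhit3 and Usp32 beside Car4. Car2 and Car3 are close enough that their windows held the same entries of each list.

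The sequences that carry the binding are shown first, from the mm9 reference, which need not match every base of the cells' own strain. Both stretches below span the densest binding of the group, upstream of Car2. Capitals mark exact WGATAA strings on either strand, which read TTATCT or TTATCA when on the minus strand, and the TG (CA on the minus strand) that lies 7 or 8 bp upstream of the string.
Car2 upstream, far region, chr3:14877555-14877844, plus strand: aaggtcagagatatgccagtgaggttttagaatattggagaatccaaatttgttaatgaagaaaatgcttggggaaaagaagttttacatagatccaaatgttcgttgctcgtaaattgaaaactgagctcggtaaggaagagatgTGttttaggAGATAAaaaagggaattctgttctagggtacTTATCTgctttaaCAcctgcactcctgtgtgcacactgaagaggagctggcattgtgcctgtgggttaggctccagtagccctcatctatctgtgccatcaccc
Car2 upstream, near region, chr3:14878980-14879269, plus strand: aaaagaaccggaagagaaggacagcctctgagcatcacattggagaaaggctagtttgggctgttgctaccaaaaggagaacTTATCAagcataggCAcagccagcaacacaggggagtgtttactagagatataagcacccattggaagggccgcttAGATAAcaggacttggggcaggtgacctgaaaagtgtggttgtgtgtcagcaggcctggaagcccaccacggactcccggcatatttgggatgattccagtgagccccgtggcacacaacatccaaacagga
The far stretch holds 2 exact WGATAA strings that face each other with 25 bp between them, and each has a TG 7 bp upstream on its own strand. It contains 2 final GATA1 and 3 final TAL1 locations. The near stretch holds 2 exact strings, of which the minus-strand TGATAA has a TG 8 bp upstream, with 1 final GATA1 and 4 final TAL1 locations.

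The 81 bp around the other final GATA1 locations are given next to show how their sequences differ from those above. Capitals mark the best match to an 8-bp matrix learned from the GATA1 locations of the series, and an entry without capitals has no match at the threshold of 0.001. Each sequence is printed on the strand of its match, or on the plus strand where there is none. The word upstream in the names refers to gene starts in the GENCODE vM1 annotation.
Car13 intron, chr3:14660678-14660758, minus strand: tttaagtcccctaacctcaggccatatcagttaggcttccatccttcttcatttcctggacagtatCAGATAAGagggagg
Car1 upstream, near, chr3:14787344-14787424, minus strand: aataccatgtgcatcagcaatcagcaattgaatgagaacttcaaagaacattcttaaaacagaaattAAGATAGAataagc
Car1 upstream, far, chr3:14808453-14808533, plus strand: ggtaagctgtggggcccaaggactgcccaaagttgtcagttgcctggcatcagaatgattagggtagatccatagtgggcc
Car2 intron, 5′ location, chr3:14890218-14890298, plus strand: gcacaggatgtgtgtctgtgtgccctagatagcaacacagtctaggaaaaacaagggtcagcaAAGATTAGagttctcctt
Car2 intron, 3′ location, chr3:14890888-14890968, plus strand: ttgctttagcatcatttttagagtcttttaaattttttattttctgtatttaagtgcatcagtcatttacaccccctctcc
Of these 5 windows only that in the Car13 intron holds an exact WGATAA string. The window of the Car2 intron 5′ location also holds an unmarked AGATAG. A matrix match lies within 20 bp of that location, closer than the best match in capitals.

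The TAL1 locations of Car1 and Car8 that carry a matrix match are shown in the same way.
Car1 upstream, near, chr3:14787404-14787484, minus strand: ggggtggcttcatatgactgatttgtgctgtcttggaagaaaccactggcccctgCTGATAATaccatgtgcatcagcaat
Car1 upstream, far, chr3:14808515-14808595, plus strand: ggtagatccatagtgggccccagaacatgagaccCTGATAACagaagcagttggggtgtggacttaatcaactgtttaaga
Car8 intron, chr4:8127501-8127581, minus strand: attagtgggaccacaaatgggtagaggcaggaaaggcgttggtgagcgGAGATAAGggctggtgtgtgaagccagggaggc
Car8 upstream, chr4:8212259-8212339, minus strand: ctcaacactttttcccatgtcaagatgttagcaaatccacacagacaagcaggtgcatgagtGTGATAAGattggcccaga
All 4 matches contain the exact string AGATAA or TGATAA.

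Across the 6 genes, 4 had at least 1 final GATA1 location in the body or within 50 kb, against 42.7% of 22208 protein-coding genes. For TAL1 the count was also 4 of 6, against 40.3% of all genes. At least 1 MultiGPS location was present at 5 of 6 genes for GATA1, against 47.6% of all genes, and at 4 of 6 for TAL1, against 44.9%. All 6 genes had at least 1 peak pair of each factor, as did 72.1% of all genes for GATA1 and 78.0% for TAL1. A cooccupied GATA1 location, with a final TAL1 location under 40 bp away, was present at 2 of 6 genes, Car2 and Car3, against 23.6% of all genes. These 2 genes share the same locations, and neighboring windows are not independent.

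**Figure D1:**
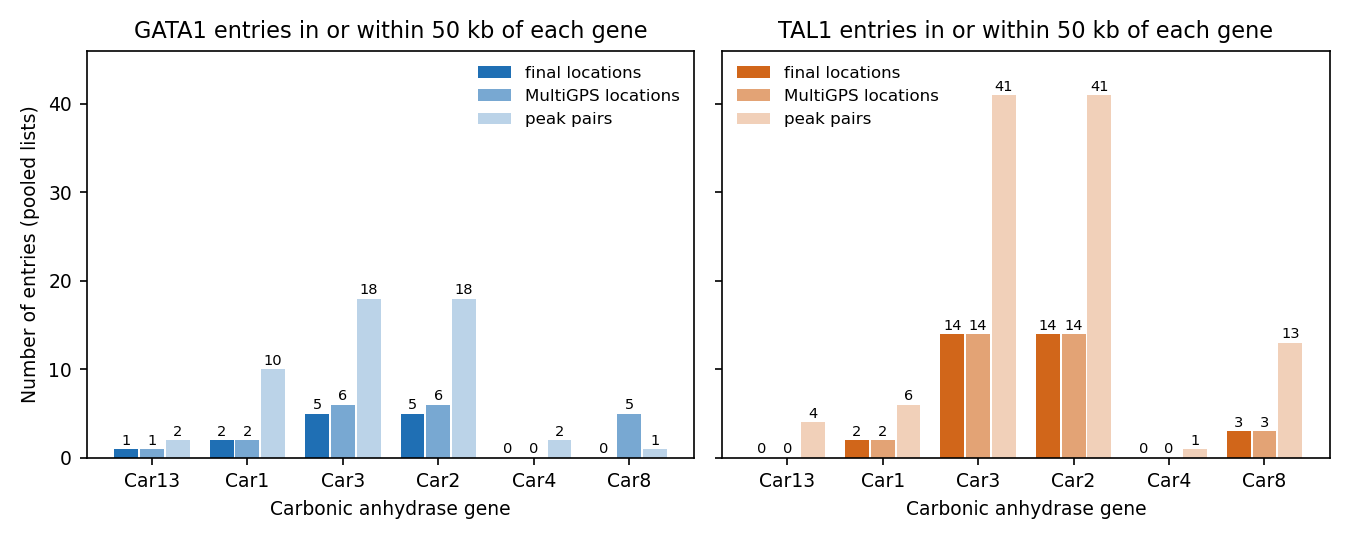
Bars give the number of final locations, MultiGPS locations and peak pairs of GATA1 (left) and TAL1 (right) in or within 50 kb of each carbonic anhydrase gene, from the pooled lists. Car2 and Car3 have the highest bars, with 14 final TAL1 locations each from the same entries, and Car4 has peak pairs only.

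The genes differed mainly in how many locations they held. Car2 had 5 final GATA1 and 14 final TAL1 locations, Car1 had 2 and 2, Car13 had 1 and 0, Car8 had 0 and 3, and Car4 had 0 and 0. At least 5 final GATA1 locations were found at 5.60% of all protein-coding genes, and at least 14 final TAL1 locations at 1.32%. At least 2 were present at 26.0% of genes for GATA1 and at 27.4% for TAL1, the numbers found at Car1. Car8, whose window is the longest of the 6 at 195675 bp, had a number of TAL1 locations that 20.3% of genes reached.

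**Figure D2:**
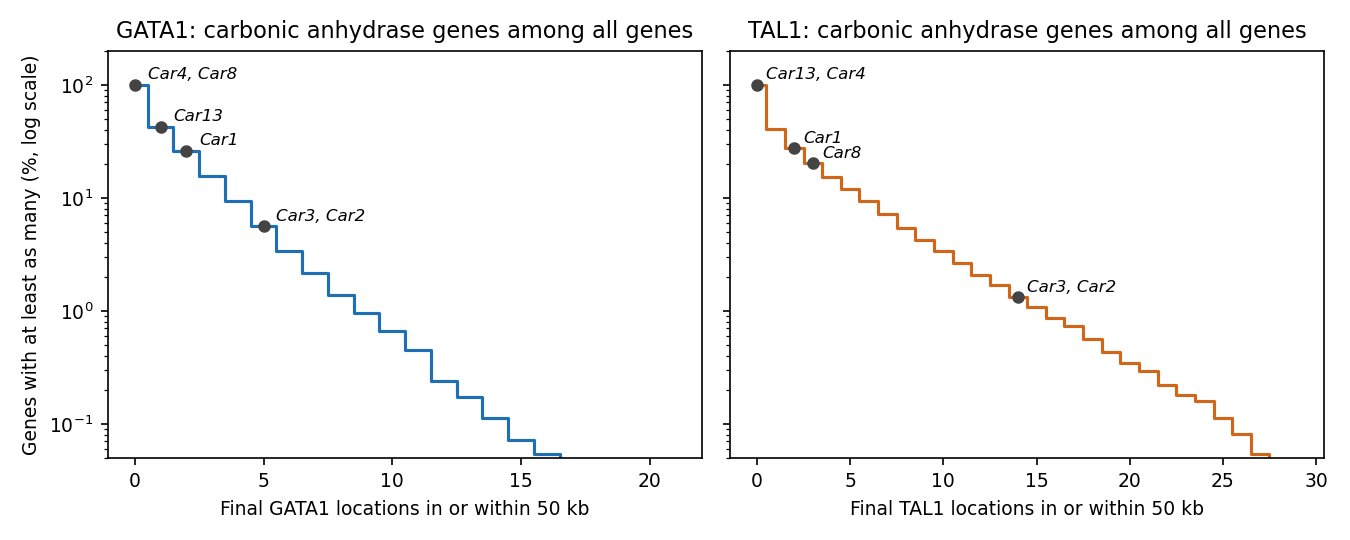
Lines give the percentage of 22208 protein-coding genes, on a log axis, that have at least the number of final GATA1 (left) or TAL1 (right) locations on the horizontal axis in or within 50 kb, drawn up to 30 locations. Points mark the carbonic anhydrase genes, with Car2 and Car3 at 5.60% for GATA1 and 1.32% for TAL1.

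At Car2, binding fell into 5 regions, none at the start site itself. The region farthest upstream ran over 502 bp, from 14877355 to 14877857, and held 2 final GATA1 and 6 final TAL1 locations. It was centered 8.82 kb upstream of the Car2 start and lay between Car3 and Car2, outside both genes. Its GATA1 locations were at 14877565 and 14877727, 162 bp apart, the only GATA1 homotypic cluster of the group, meaning final locations under 500 bp apart. Its TAL1 locations were at 14877355, 14877521, 14877557, 14877691, 14877762 and 14877857. Of the 2906 TAL1 clusters of the series, 11.6% had 6 or more locations. Within 100 bp of the region lay 3 GATA1 and 14 TAL1 peak pairs.

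Both of its GATA1 locations were cooccupied, with the nearest TAL1 location 8 and 35 bp away. The TAL1 locations at 14877691 and 14877762 flank the facing WGATAA strings shown above, at offsets of -21.5 and -18.5 bp from the midpoint of the string nearer to them (negative values are upstream on the string's strand), and the GATA1 location at 14877727 lies between the strings. The GATA1 location at 14877565 had no exact string within 40 bp, and its matrix match was GAGATATG. An exact string outside the printed stretch, TGATAA at 14877460, had no final location within 40 bp of either factor.

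The near upstream region, centered 7305 bp before the Car2 start, held 1 GATA1 location at 14879118 and a TAL1 cluster of 4 at 14879000, 14879083, 14879150 and 14879242, over 242 bp. The GATA1 location was cooccupied, 32 bp from the TAL1 location at 14879150 and 35 bp from that at 14879083. Of all TAL1 clusters, 33.2% had 4 or more locations. The region had 3 GATA1 and 10 TAL1 peak pairs. The GATA1 pair at 14879140 was at an offset of -0.5 bp from the midpoint of the exact AGATAA string, whereas the final GATA1 location was at an offset of -22.5 bp.

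**Figure D3:**
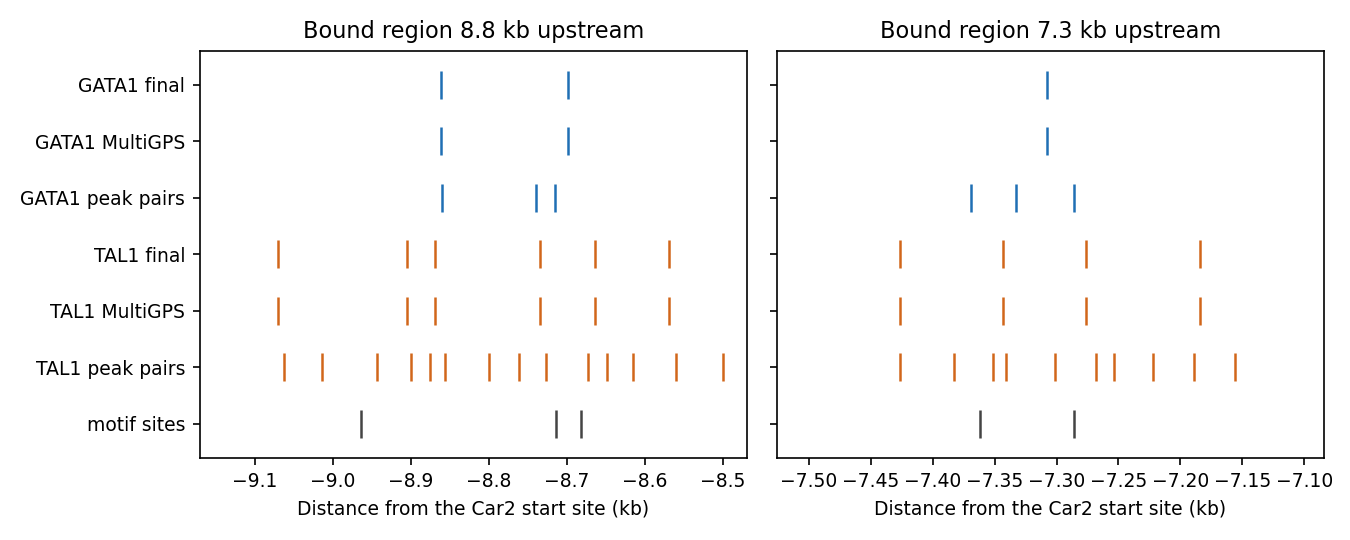
Positions of final locations, MultiGPS locations and peak pairs of GATA1 and TAL1 and of exact WGATAA motif sites in the far (left) and near (right) regions upstream of Car2, by distance from the Car2 start site in kb. The far region has 6 TAL1 locations around 2 GATA1 locations, and the near region has 4 around 1.

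Inside Car2, both bound regions were in introns. The region 3.80 kb past the start had a TAL1 location at 14890195 and a GATA1 location at 14890258, 63 bp apart, with no exact WGATAA string within 100 bp of the region. The other, 4.50 kb past the start, was a GATA1 location at 14890928 without TAL1, whose nearest TAL1 peak pair was 627 bp away. The location itself had no matrix match within 40 bp, and its nearest GATA1 peak pair was 65 bp away. That pair, at 14890993, and another at 14891025 were at offsets of 20.5 and -11.5 bp from an exact AGATAA string that starts at 14891011.

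Past the end of Car2, 29.2 kb from its start, a TAL1 cluster of 3 lay at 14915552, 14915593 and 14915707, over 155 bp. No GATA1 MultiGPS location was there, and the nearest final GATA1 location was 24624 bp away or more. GATA1 peak pairs were nonetheless called at 14915575 and 14915778, which are 18 and 71 bp from the closest TAL1 location. None of the 3 TAL1 locations had a matrix match. The start site closest to each of the 19 final locations in the Car2 window was that of Car2. Car3, for which the nearest final location of either factor was 13817 bp past its start, was the closest gene to none of them.

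At Car1, both bound regions lay upstream of the gene as annotated in GENCODE vM1, and each paired 1 GATA1 with 1 TAL1 location. The near region had GATA1 at 14787384 and TAL1 at 14787444, 8925 and 8985 bp upstream of the start. The far region had GATA1 at 14808493 and TAL1 at 14808555, 30034 and 30096 bp upstream. The start used here is that of GENCODE vM1, in which Car1 is 12243 bp long. RefSeq's Car1 in the later build GRCm38.p6 is 42152 bp long, and Car1 is known to be transcribed in red cells from a promoter far upstream of the one used in the colon. The distances given here therefore depend on the annotation, and the place of the far region relative to that promoter was not tested.

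The 2 factors were 60 bp apart at the near Car1 region, 62 bp at the far one and 63 bp at the Car2 intron, so none of the 3 met the limit of 40 bp. A nearest TAL1 location at 60 to 79 bp was found for 3.41% of all final GATA1 locations, a range chosen after these values were seen. Peak pairs lay closer. A TAL1 pair was 38 bp from the near Car1 GATA1 location, 1 bp from the far one and 6 bp from the Car2 intron location. The far Car1 region was the richest in GATA1 peak pairs, with 6 within 100 bp of the GATA1 location, which 1.87% of final GATA1 locations reach. No WGATAA matrix match lay within 40 bp of the location itself, but 3 of these pairs, at 14808525, 14808543 and 14808565, were at offsets of -27.5, -9.5 and 12.5 bp from the exact TGATAA string printed above for the far TAL1 location.

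**Figure D4:**
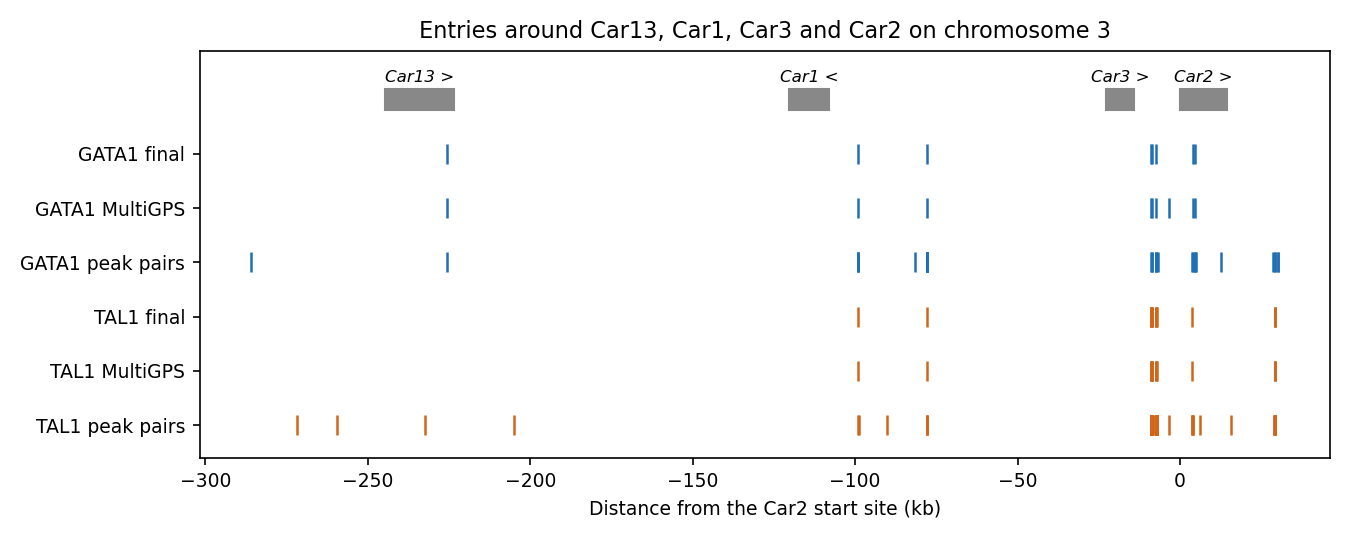
Positions of the GATA1 (blue) and TAL1 (orange) entries around Car13, Car1, Car3 and Car2, by distance from the Car2 start site in kb, with 1 track for each list and gene bodies as gray boxes with arrows for direction. Final locations of both factors gather upstream of and inside Car2 and upstream of Car1 as annotated in GENCODE vM1. The only final location at Car13 is 1 of GATA1 in an intron.

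Car13 had a single final location, GATA1 at 14660718 in an intron 18991 bp past its start. The nearest final TAL1 location was 126726 bp away, and the nearest TAL1 peak pair 6801 bp away. An exact AGATAA string lay within 40 bp of it, as printed above, and a GATA1 peak pair 57 bp from it. The other entries around Car13 were 1 GATA1 and 4 TAL1 peak pairs without a MultiGPS location. Of these 5 pairs, 1 GATA1 pair lay in an intron of E2f5, which encodes a transcription factor of the E2F family. A TAL1 pair, at 14653917, lay in an intron of Car13 itself.

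At Car8 the 2 factors differed in how they were called. TAL1 had 3 final locations, at 8127541 and 8159484 in introns, 38647 and 6704 bp past the start, and at 8212299, 46111 bp upstream. GATA1 had no final location there but 5 MultiGPS locations, at 8125290, 8144534, 8157984, 8170041 and 8212305. None of these 5 had a GATA1 peak pair within 100 bp, and 1 GATA1 pair in the window, at 8127105, lay 436 bp from a final TAL1 location. The GATA1 MultiGPS location at 8212305 was 6 bp from the upstream TAL1 location, whose printed window holds a TGATAA string. Of all protein-coding genes, 8.02% had 5 or more GATA1 MultiGPS locations in such a window.

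**Figure D5:**
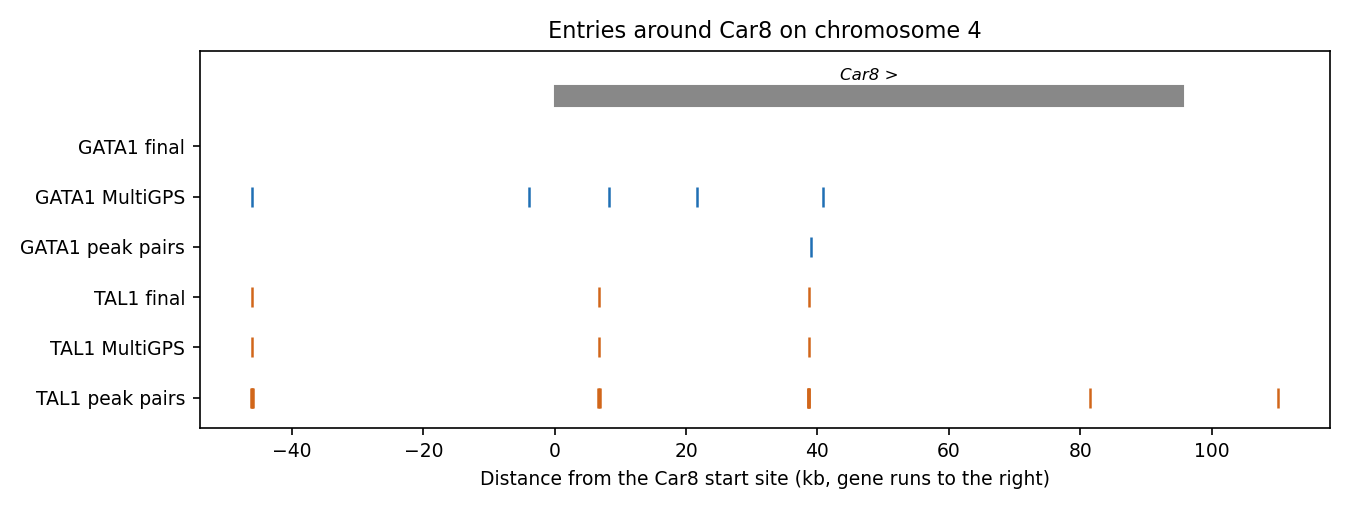
Positions of the GATA1 (blue) and TAL1 (orange) entries around Car8, by distance from its start site in kb, with the gene running to the right and drawn as a gray box. The final GATA1 track is empty, whereas the GATA1 MultiGPS track holds 5 locations and the final TAL1 track 3.

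Car4 had no final or MultiGPS location of either factor in its window. Its GATA1 peak pairs, at 84735401 and 84743080, were closest to the start of Znhit3, and its only TAL1 pair, at 84817094, lay in an intron of Usp32. The nearest final location to the Car4 start was 84499 bp away for GATA1 and 84540 bp for TAL1.

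The calls of the 2 methods were then compared. Of the GATA1 MultiGPS locations around the carbonic anhydrase genes, 8 of 14 (57.1%) had a GATA1 peak pair within 100 bp, against 80.5% in the whole series. The 6 without were the 5 at Car8 and 1 at 14882961, between the near upstream region and the start of Car2. For TAL1 all 19 of 19 had a pair, against 86.2%. Of the peak pairs, 19 of 33 GATA1 pairs (57.6%) and 42 of 65 TAL1 pairs (64.6%) were within 100 bp of a final location of the same factor, against 46.1% and 50.1% in the series.

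Over the 8 final GATA1 locations, 3 (37.5%, 95% exact binomial interval 8.52 to 75.5%) were cooccupied, against 35.9% of all 10290. Under 100 bp the count was 6 of 8 (75%, interval 34.9 to 96.8%) against 47.9%. Of the 19 TAL1 locations, 5 (26.3%, interval 9.15 to 51.2%) were cooccupied with GATA1, against 27.5%. In homotypic clusters were 2 of 8 GATA1 locations (25%) against 13.7%, and 13 of 19 TAL1 locations (68.4%) against 64.4%. The intervals cover counting error only and treat neighboring locations as independent. Each of the intervals in this paragraph includes the share of the whole series.

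A matrix match was found within 40 bp of 6 of 8 GATA1 locations (75%, interval 34.9 to 96.8%) and 10 of 19 TAL1 locations (52.6%, interval 28.9 to 75.6%), against 81.7% and 58.2% in the series and 16.3% in GATA1 windows moved by 1 kb. The exact WGATAA string was within 40 bp of 3 of 8 GATA1 locations (37.5%, interval 8.52 to 75.5%), against 66.5% in the series. For TAL1 it was within 40 bp of 8 of 19 locations (42.1%, interval 20.3 to 66.5%), against 45.9%. Both intervals include the share of the series. The E-box CAGATG or CAGCTG, a binding sequence of basic helix-loop-helix factors, was within 40 bp of 0 of 8 GATA1 and 0 of 19 TAL1 locations, where 17.2% and 21.7% in the series had it. For 0 of 19 the upper bound of the interval is 17.6%, and several of these locations share their sequence with a neighbor. Farther out, 2 such E-boxes lay within 100 bp of the near Car1 region and 1 within 100 bp of the Car8 intron location at 8159484. CAGATG and CAGCTG are only part of the wider E-box CANNTG, where N is any base. Other CANNTG strings were present, such as 2 within 40 bp of the TAL1 location at 14787444 and 1 within 40 bp of that at 8127541. Their share in the series was not computed.

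Most WGATAA strings of the group had no location. From 50 kb before Car13 to 50 kb past Car2, a span of 359043 bp, there were 596 exact strings on both strands. Of these, 4 lay within 40 bp of a final GATA1 location and 6 within 40 bp of a final TAL1 location, and 12 and 9 within 40 bp of a peak pair of GATA1 and TAL1. The Car8 window held 308 exact strings, with 0 within 40 bp of a final GATA1 location and 2 within 40 bp of a final TAL1 location. The Car4 window held 100, with 0 for either factor. The share over all such strings of the genome was not computed, so these low counts are not shown to be particular to these genes.

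A TG placed 7 or 8 bp upstream of WGATAA is the arrangement of a partial E-box beside a GATA site. Exact strings were searched only within 100 bp of the bound regions, where there were 13, and 6 had this arrangement. Of the 8 among them within 40 bp of a final TAL1 location, 6 had it, and over the whole series it was present at 3701 of 7684 such strings (48.2%). In the lines below the TG and the string are in capitals.
Car1 upstream, near, 8 bp: ccacTGgcccctgcTGATAA
Car2 upstream, far region, plus strand, 7 bp: gatgTGttttaggAGATAA
Car2 upstream, far region, minus strand, 7 bp: caggTGttaaagcAGATAA
Car2 upstream, near region, 8 bp: gctgTGcctatgctTGATAA
Car8 intron, 8 bp: gcgtTGgtgagcggAGATAA
Car8 upstream, 8 bp: caggTGcatgagtgTGATAA
All 6 had a final TAL1 location within 40 bp, as did 2 of the 7 strings without the TG, and the search around called locations favors such closeness. Of the 6, both strings of the far Car2 region also had a final GATA1 location within 40 bp. The nearest TAL1 peak pair was upstream of the string at 5 of the 6, at offsets of -13.5, -9.5, -10.5, -12.5 and -20.5 bp from its midpoint, and at 3.5 bp, downstream, at Car1. At the 2 strings without the TG that had a TAL1 location within 40 bp it was upstream as well, with a median offset of -11 bp. In the whole series, 3701 exact strings within 40 bp of a final TAL1 location had a TG at 7 or 8 bp, and where a TAL1 pair lay within 40 bp it was upstream in 68.9%, with a median offset of -12.5 bp. Without the TG the share was 58.3% and the median -6.5 bp. At the strings with the TG, a GATA1 pair lay within 40 bp of 4 of the 6, and the nearest was upstream at 1, with a median offset of 13.5 bp. In the series 64.7% of such GATA1 pairs were upstream, with a median of -5.5 bp. The 4 offsets are not independent, since 1 pair, at 14877711, was the nearest to both facing strings of the far Car2 region. It lay at -1.5 bp from the plus-strand string and 32.5 bp from the minus-strand string. At the 2 strings without the TG that had a TAL1 location within 40 bp, the nearest GATA1 pairs were both upstream, with a median of -5 bp. The series values for such strings were 63.7% and -4.5 bp. Strings with neither the TG nor a TAL1 location within 40 bp went both ways. Their nearest GATA1 pairs within 40 bp were at 27.5 bp in the Car13 intron, 30.5 bp at the near Car1 region and -11.5 bp in the Car2 intron. No test was made of these offsets.

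The other carbonic anhydrase genes were counted the same way. Of 10, namely Car5a, Car5b, Car6, Car7, Car9, Car10, Car11, Car12, Car14 and Car15, 7 had a final GATA1 and 5 a final TAL1 location within 50 kb, and 3 had a cooccupied one, beside 42.7%, 40.3% and 23.6% of all genes. Car5a had 6 final GATA1 locations, more than the 5 at Car2, and 8 final TAL1 locations against 14, and 3.38% of all genes had as many for GATA1 and 5.44% for TAL1. None of the locations around Car5a lay in its body, and Car5a was the closest gene to none of them. Within 10 kb of the gene body, of these 10 genes only Car5a had final locations, 4 of GATA1 and 2 of TAL1, whereas Car2 had 5 and 11. Of 7 genes for bicarbonate, carbon dioxide or water transport, 3 had a final GATA1 location within 50 kb, 2 a final TAL1 location and 1 a cooccupied one, counts to be read against the same shares of all genes. Slc4a1, the chloride and bicarbonate exchanger of the red cell membrane, had 4 GATA1 and 11 TAL1 locations, numbers that 9.44% and 2.66% of all genes reached. Rhag, a subunit of the Rh membrane complex, had 3 and 9, which 15.6% and 4.26% reached. Slc4a4, a sodium and bicarbonate cotransporter, had 1 GATA1 location and no TAL1 location. Slc4a2, Slc4a7, Slc26a6 and the water channel gene Aqp1 had no final location of either factor within 50 kb, though each had a peak pair there.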

How the data were processed

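ChIP-exo libraries of GATA1 and TAL1, 25 in all, were prepared by the authors from G1E and G1E-ER4 cells with the antibodies sc265 and sc12984. The submitters' processing notes name Bowtie 1.00, BWA 0.6.2 and 0.7.9a, CASAVA 1.7 and bcl2fastq 2.15. The authors aligned reads to mm9, kept uniquely mapped ones, merged replicates, left out blacklisted regions, and kept calls enriched over an input control. The 6 deposited lists hold 1 position per entry and no count, so depth and precision per library are unknown from them. The methods describe merged GATA1 data of G1E-ER4 cells alone, whereas in the labels the G1E library of GATA1 points to those lists too.

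Positions were read from the lists as deposited and lay within the chromosomes of the NCBIM37 reference, which is mm9. Genes were the protein-coding genes of GENCODE vM1, the longest entry for each name, and the closest gene was that with the nearest transcript start. Distances followed the study's definitions: cooccupied under 40 bp, MultiGPS with a peak pair at most 100 bp, homotypic cluster under 500 bp. The WGATAA matrix was 8 bp wide and learned by expectation maximization over 30 iterations from 81-bp windows at 500 GATA1 locations drawn at random with a fixed seed (pseudocount 1). Matches at p of 0.001 within 40 bp were kept, and the exact strings AGATAA and TGATAA were searched on both strands. Counting and motif functions were tested on simulated data. No test between groups was run, since the lists hold no replicates, and shares have exact binomial intervals. The genes, lists and definitions were chosen with earlier results of these data known. Named were the 6 genes, all protein-coding genes overlapping their windows, the other carbonic anhydrase genes and the transport list, and 2 listed genes are not reported here. Of the 6 genes, only Car4 had an entry in the RefSeq promoter table, and promoters were not used here. Software was samtools 1.23.1 and pysam 0.24.0 for sequence, scipy 1.17.1 for intervals, matplotlib 3.10.9 for plots, and pandas 2.3.3, numpy 2.4.6 and Python 3.11.15 for the rest.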

Additional observations from a re-analysis of the deposited data

How the results depend on the processing

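Of 23 alternatives over 9 counts around the carbonic anhydrase genes, 13 stayed within 1.5 times the value reported and 10 did not. The number of GATA1 locations was 8, and 14 with all MultiGPS locations. Of the 3 cooccupied GATA1 locations, 1 remained under 20 bp, and the number was 6 under 100 bp and 6 when TAL1 peak pairs replaced final locations. GATA1 locations in homotypic clusters numbered 2, and 4 with a limit of 1000 bp. GATA1 locations with a WGATAA site numbered 6, and 3 with the exact string, 2 at the stricter matrix p of 0.0001 and 3 within 20 bp. TAL1 locations with a WGATAA site numbered 10, and 2 at the stricter p and 5 within 20 bp. The cause of these shifts was not tested. Counts over 8 or 19 locations are small, and the shares above carry wide intervals.

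No paired analysis was possible because the lists pool libraries of a factor and carry no replicate. For the same reason no library was left out in turn. Depth limits which locations were called, and the lists do not give it, so a gene without an entry is not shown to be unbound.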
